A study of Mus musculus with 9 samples.

Results

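RNA sequencing was used to follow 10 genes of the fibroblast growth factor (FGF) system in ST2 cells: the ligands Fgf2, Fgf7 and Fgf10, the receptors Fgfr1, Fgfr2 and Fgfr3, and the feedback inhibitors Spry1, Spry2, Spry4 and Dusp6. They were picked by gene name from a table of 54532 genes, and all 10 were among the 14004 genes with enough reads to test. ST2 is a mouse bone marrow stromal cell line, labelled wild type and mesenchymal stem cell. The vehicle group had 3 libraries, the rhWnt3a group had 3 libraries from cells given recombinant human Wnt3a at 50 ng/ml, and the third group had 3 libraries from cells given rhWnt3a with OSMI, an inhibitor of O-GlcNAc transferase, at 20 μM. Total RNA was taken at 72 h in every group. The titles of the third group name both agents, whereas its treatment label, the design text and the study's methods name OSMI alone. It is taken as rhWnt3a with OSMI from its titles and from the way the study describes the experiment in its results, and both comparisons that use it hold only as far as that is right. No other group had OSMI, so the effect of OSMI on cells with and without rhWnt3a cannot be compared. All samples came from 1 cell line.

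FGF ligands bind receptor tyrosine kinases together with heparan sulfate, and the activated receptors pass the signal through adaptor proteins and RAS to the kinase ERK. ERK activity turns on genes whose products hold the signal back, among them the Sprouty proteins, which act between receptor and ERK, and Dusp6, a cytoplasmic phosphatase that removes phosphate from ERK. In the skeleton FGF signalling takes part in growth of the stromal progenitor pool, in limb outgrowth and in control of the growth plate, where Fgfr3 restrains chondrocyte proliferation.

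The libraries held 16135898 to 17583945 counts. In each group 1 library stood apart from the other 2, namely vehicle replicate 3, rhWnt3a replicate 2 and replicate 3 of rhWnt3a with OSMI (OSMI replicate 3), with mean squared log2 differences of 0.373 to 0.454 to the other libraries of its group, compared with 0.111 to 0.119 between those others. The main axis of difference within groups held 54.8% of the within-group variance. On it, OSMI replicate 3 (-0.431) lay opposite to vehicle replicate 3 (0.493) and rhWnt3a replicate 2 (0.485). OSMI replicates 1 and 2 lay on the side of those last 2 libraries, so comparisons with OSMI are not balanced on it. Leaving out the 3 libraries that stood apart leaves the OSMI group opposite to the other groups on this axis. The cause of the split within groups was not tested. Of 9 stromal markers examined, 6 exceeded 10 CPM (counts scaled to a common library size) in every library, while Thy1 had at most 4 counts in any library. The summed level of the 9 was 18000 to 24700 CPM with vehicle, 14800 to 18000 with rhWnt3a and 8240 to 16000 with both agents, and the part of this difference in the results was not tested. The summed hematopoietic markers reached at most 2.21 CPM, with Ptprc at 3 counts or fewer, and the summed endothelial and epithelial markers reached at most 2.8 and 0.244 CPM. Levels of single genes are given as CPM scaled by the trimmed mean of M values (TMM). In such bulk samples fewer cells of a type and less RNA per cell cannot be told apart.

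To place the genes on 1 scale, their levels were divided by exon length (RPKM, CPM per kilobase of exon). In vehicle-treated cells Fgf7, which encodes keratinocyte growth factor, had the highest level of the 10 at 68.3 ± 17.6 RPKM (SD, n = 3), followed by Fgfr1 at 41.0 ± 6.05 and Fgfr2 at 15.3 ± 1.92. Spry1 ranked 6 in vehicle at 2.92 ± 1.70 RPKM, and its range overlapped that of Spry2 at 4.57 ± 1.71. With rhWnt3a, Spry1 ranked 1 at 35.5 ± 2.27 RPKM, above Fgfr1 at 29.4 ± 0.667 and Fgf7 at 27.0 ± 1.65, and the ranges of these neighbours did not overlap. With rhWnt3a and OSMI, Fgf7 again ranked 1 at 53.6 ± 17.7 RPKM, before Fgfr1 at 30.4 ± 7.35 and Spry1 at 24.6 ± 4.84, but Fgf7 overlapped Fgfr1 and Fgfr1 overlapped Spry1. At the other end, Fgf10, Spry4 and Fgfr3 had mean levels under 1 RPKM in every group, as did Fgf2 in vehicle (0.280) and with both agents (0.861), so these values rest on few reads.

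The start of a gene is where transcription factors such as TCF/LEF, which carry the Wnt signal in the nucleus, and ETS factors, which respond to ERK, can bind. RefSeq promoter windows on GRCm38.p6 were at hand for 8 of the 10 genes, as 9 windows, and the 250 bases before each start were searched on both strands for TCF/LEF letters (CTTTG followed by AA, AT, TA or TT) and for an ETS core (CCGGAAG). The windows of 4 genes are shown here, 5′ to 3′ on the strand of the gene and up to the base before the start, because Spry1 rose most, Fgf7 and Dusp6 were each other's nearest gene in pattern, and Spry2 showed no called change. Capitals mark TCF/LEF letters.
Spry1 (chr3:37639697-37639946, plus strand): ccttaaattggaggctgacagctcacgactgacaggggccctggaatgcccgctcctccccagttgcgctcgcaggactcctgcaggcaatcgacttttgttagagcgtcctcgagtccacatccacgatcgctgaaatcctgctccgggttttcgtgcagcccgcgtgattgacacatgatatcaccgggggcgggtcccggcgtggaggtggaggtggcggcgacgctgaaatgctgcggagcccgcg
Fgf7 (chr2:126034408-126034657, plus strand): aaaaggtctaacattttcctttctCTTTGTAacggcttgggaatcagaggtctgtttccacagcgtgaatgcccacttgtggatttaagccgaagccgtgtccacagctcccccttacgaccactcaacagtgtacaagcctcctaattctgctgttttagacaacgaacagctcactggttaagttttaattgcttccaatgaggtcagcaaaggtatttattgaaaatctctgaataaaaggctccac
Dusp6 (chr10:99262981-99263230, plus strand): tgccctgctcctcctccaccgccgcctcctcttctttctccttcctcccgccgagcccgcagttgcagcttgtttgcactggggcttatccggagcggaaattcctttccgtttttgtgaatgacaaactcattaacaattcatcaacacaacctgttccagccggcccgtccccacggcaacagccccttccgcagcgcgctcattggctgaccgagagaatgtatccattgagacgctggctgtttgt
Spry2 (chr14:105896820-105897069, minus strand): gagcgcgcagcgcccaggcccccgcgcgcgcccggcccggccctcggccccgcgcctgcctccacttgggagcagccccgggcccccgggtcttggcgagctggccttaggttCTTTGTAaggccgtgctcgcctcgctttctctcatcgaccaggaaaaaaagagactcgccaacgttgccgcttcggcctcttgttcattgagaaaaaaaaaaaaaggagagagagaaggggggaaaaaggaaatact
A TCF/LEF match was found in 2 of the 9 windows, starting 226 bases before the start of Fgf7 and 137 bases before that of Spry2, while 14.8% of all 32851 RefSeq windows of this length held one. The ETS core was in 0 of the 9 windows and in 6.91% of all windows. The Spry1 window, in front of the gene with the greatest rise, held neither set of letters. These are descriptions of letters in short windows only.

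The first comparison asked how rhWnt3a alone changed the FGF genes. Fgf2 and Spry1 rose, while Fgf7, Fgf10, Fgfr2 and Dusp6 fell, so each of the 3 roles held genes that fell. Changes were called where edgeR's quasi-likelihood test gave an adjusted p under 0.05 and the log2 fold change lay beyond 0.5. By this rule 6 of the 10 genes were called, whereas 8.78% of all genes tested were. The 2 that rose compare with 2.92% of all genes called higher, and the 4 that fell compare with 5.86% called lower. For 9 of the 10 genes, all but Spry2, no rhWnt3a library overlapped a vehicle library, and this held for 26.4% of all genes tested. The median log2 fold change of the 10 genes was -1.07, compared with 0.0371 over all genes tested.

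Among the ligands, Fgf2, or basic FGF, which acts on several FGF receptors, was at 2.44, 1.85 and 1.41 CPM in the vehicle libraries, 9.67, 7.96 and 8.73 with rhWnt3a, and 4.78, 4.65 and 8.10 with both agents. All rhWnt3a libraries lay above all vehicle libraries, and OSMI replicates 1 and 2 lay between the groups while replicate 3 was within the rhWnt3a range. The rhWnt3a level was 4.62-fold higher than vehicle (log2 fold change 2.21, SE 0.286, edgeR adjusted p = 0.00102). Fgf7, which stimulates epithelial cells through a splice form of Fgfr2, was at 187, 191 and 288 CPM with vehicle, 81.8, 92.3 and 89.0 with rhWnt3a, and 205, 209 and 108 with both agents. The rhWnt3a libraries lay below every other library, and OSMI replicate 3 was nearer to them than to OSMI replicates 1 and 2. Fgf7 was 2.53-fold lower with rhWnt3a than with vehicle (log2 fold change -1.34, SE 0.261, edgeR adjusted p = 0.00991). This call was lost without rhWnt3a replicate 1, with a log2 fold change of -1.26 and an adjusted p of 0.057 in edgeR.

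Fgf10, which shares that receptor form with Fgf7 and drives limb and lung budding, was at 5.31, 4.08 and 4.02 CPM with vehicle, 0.547, 0.966 and 0.598 with rhWnt3a, and 1.15, 1.95 and 1.57 with both agents. The 3 groups did not overlap, in the order vehicle, rhWnt3a with OSMI, rhWnt3a. The level with rhWnt3a was 6.27-fold below vehicle (log2 fold change -2.65, SE 0.317, edgeR adjusted p = 0.000635), from 64 to 87 counts in the vehicle libraries and 9 to 17 in the rhWnt3a libraries. Fgf7 made up 98.1% ± 0.7 (SD, n = 3) of the summed RPKM of the 3 ligands in vehicle and 94.9% ± 0.624 with rhWnt3a. Over the same comparison the share of Fgf2 went from 0.433% ± 0.189 to 4.58% ± 0.701, without overlap. A permutation test of 3 against 3 libraries cannot give a p below 0.1, so no test was made on the shares.

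Among the receptors, Fgfr2 was at 164, 173 and 135 CPM with vehicle, 85.3, 72.7 and 80.8 with rhWnt3a, and 110, 107 and 130 with both agents. The 3 groups did not overlap and fell in the same order as for Fgf10. Fgfr2 was 1.98-fold lower with rhWnt3a than with vehicle (log2 fold change -0.99, SE 0.142, edgeR adjusted p = 0.00185). Fgfr1, the most abundant of the 3 receptors per exon length, was at 450, 429 and 337 CPM with vehicle, 287, 285 and 298 with rhWnt3a, and 263, 253 and 383 with both agents. Every rhWnt3a library was below every vehicle library, but the change of -0.48 on the log2 scale (SE 0.186) was not called, with an edgeR adjusted p of 0.169. Without the 3 libraries that stood apart it was -0.62 and called, with an edgeR adjusted p of 2.1e-07 in a fit with 2 libraries a group. These libraries were left out for their distance from the rest, which lowers the spread. That fit called 2557 of 14111 genes for rhWnt3a against vehicle.

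Fgfr3 was rare, with 18 to 56 counts in the vehicle libraries, 6 to 16 with rhWnt3a and 4 to 12 with both agents. Its levels were 1.59, 3.57 and 1.02 CPM with vehicle and 0.669, 0.910 and 0.359 with rhWnt3a, and the groups did not overlap. The log2 fold change of -1.65 had a wide interval, -2.91 to -0.39, and an edgeR adjusted p of 0.117. It was called without a count filter (-1.66, adjusted p = 0.0199) and without the 3 libraries that stood apart (-2.34, adjusted p = 0.000898 in edgeR). Those fits called 1552 of 27560 and 2557 of 14111 genes for rhWnt3a against vehicle. Of the summed receptor RPKM, Fgfr1 held 72.5% ± 1.19 (SD, n = 3) in vehicle, 79% ± 1.22 with rhWnt3a and 72.6% ± 2.43 with rhWnt3a and OSMI. The Fgfr2 share was 27% ± 1.04, 20.7% ± 1.31 and 27.3% ± 2.48 in the same order. For both genes the rhWnt3a libraries lay outside the ranges of vehicle and of rhWnt3a with OSMI, and the ranges of the latter groups overlapped.

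Among the feedback genes, Spry1 was at 4.58, 6.88 and 14.0 CPM with vehicle, 103, 110.0 and 96.8 with rhWnt3a, and 64.5, 62.04 and 87.5 with both agents. The 3 groups did not overlap, with rhWnt3a highest, and vehicle replicate 3 was above the other vehicle libraries. Spry1 was 12.1-fold higher with rhWnt3a than with vehicle (log2 fold change 3.60, SE 0.355, edgeR adjusted p = 0.000235), and this change exceeded in size that of 99.5% of the genes tested. Dusp6 was at 22.8, 22.1 and 37.4 CPM with vehicle, 11.9, 12.2 and 12.9 with rhWnt3a, and 22.6, 21.3 and 15.7 with both agents. The rhWnt3a libraries were again below all others, opposite to Spry1. The level was 2.23-fold lower than in vehicle (log2 fold change -1.15, SE 0.226, edgeR adjusted p = 0.0101), a call that was lost without rhWnt3a replicate 1, where the log2 fold change was -1.10 and the adjusted p was 0.0552.

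Of the other Sprouty genes, neither Spry2 nor Spry4 was called. Spry2 was at 7.02, 7.96 and 13.6 CPM with vehicle, 9.43, 9.61 and 8.85 with rhWnt3a, and 10.4, 9.35 and 10.1 with both agents. The groups overlapped, and vehicle replicate 3 was the highest of all libraries. The log2 difference between rhWnt3a and vehicle was -0.04 (95% interval -0.56 to 0.48, edgeR adjusted p = 0.958), and it was 0.31 without vehicle replicate 3, which turned its sign. Spry4 was at 1.77, 1.72 and 1.19 CPM with vehicle, 0.487, 0.227 and 1.08 with rhWnt3a, and 1.15, 1.03 and 0.583 with both agents. It rested on 4 to 29 counts a library and its log2 difference of -1.38 between rhWnt3a and vehicle had an edgeR adjusted p of 0.141. Without the 3 libraries that stood apart it was -1.18 and called (edgeR adjusted p = 0.0399), in a fit that called 2557 of 14111 genes. Spry3, a Sprouty gene outside the 10, was at 6.28 ± 0.705 CPM (SD, n = 3) with vehicle, 7.81 ± 0.396 with rhWnt3a and 4.53 ± 1.11 with both agents, and was called in none of the 3 comparisons (edgeR adjusted p = 0.477, 0.0595 and 0.157).

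**Figure D1:**
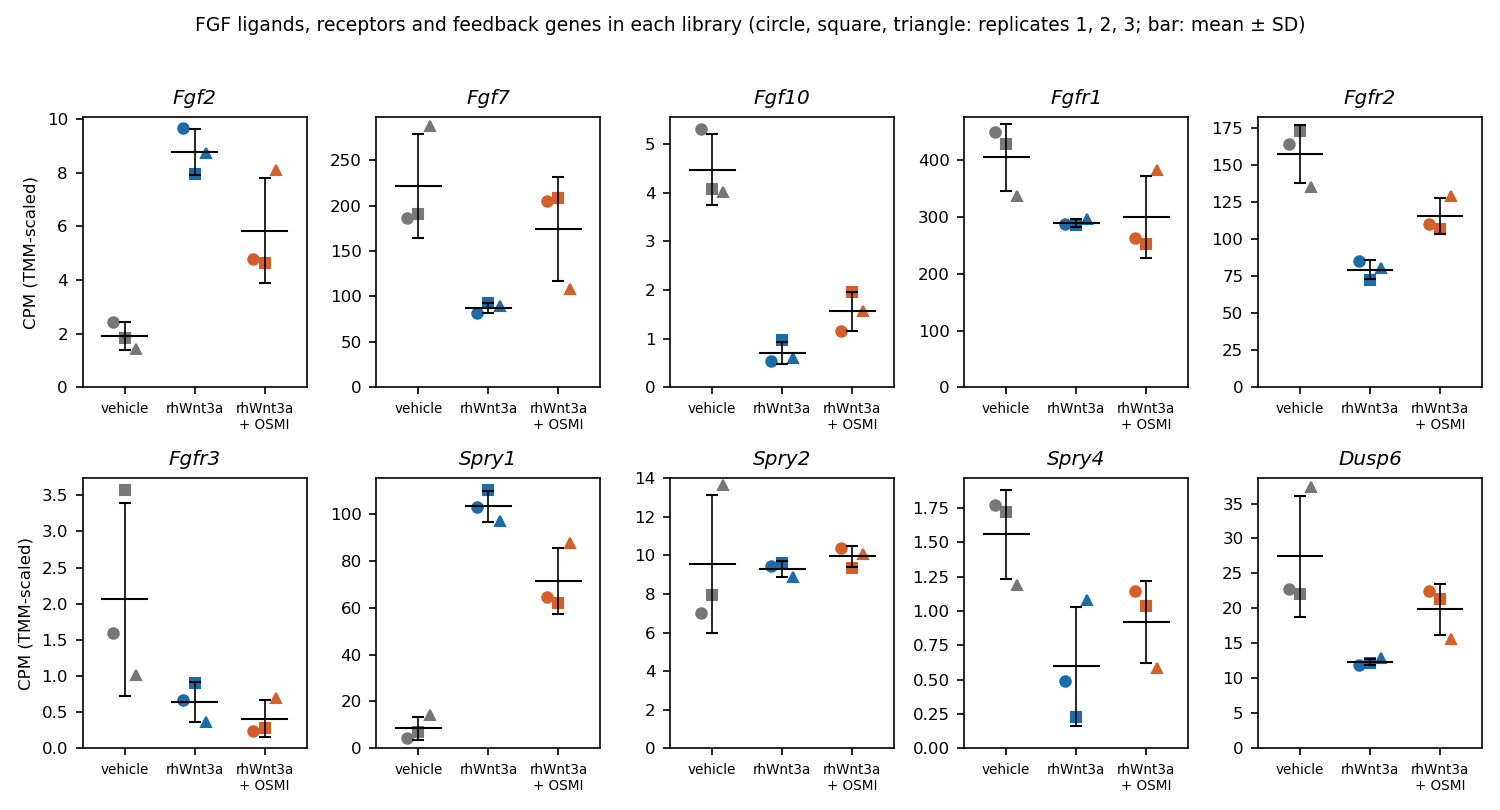
Level of each of the 10 genes in TMM-scaled CPM (vertical axis, from 0, a separate linear scale in each panel) in the 9 libraries of the 3 groups (horizontal axis), with circles, squares and triangles for replicates 1, 2 and 3 and black bars for the mean ± SD. The rhWnt3a libraries of Spry1 sit between 96.8 and 110.0 CPM, far above the vehicle libraries, whereas those of Fgf7 sit between 81.8 and 92.3 CPM, below every vehicle library.

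The make-up of the summed Spry1, Spry2 and Spry4 transcripts differed between the groups. Spry1 contributed 29.6%, 36.1% and 41.5% of the summed RPKM of these 3 genes in the vehicle libraries, 88.5%, 89.1% and 88.2% with rhWnt3a, and 80.9%, 81.9% and 85.9% with both agents. Spry2 was the larger part in every vehicle library and the smaller part in every treated library. The summed level of the 3 genes was 7.84 ± 3.33 RPKM (SD, n = 3) in vehicle, 40.1 ± 2.36 with rhWnt3a and 29.5 ± 4.86 with rhWnt3a and OSMI. The 3 groups did not overlap in the share of Spry1. With Spry3 added to the sum, the share of Spry1 was 29.9% ± 7.32 in vehicle, 84.7% ± 0.823 with rhWnt3a and 80.1% ± 2.32 with both agents, again without overlap.

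**Figure D2:**
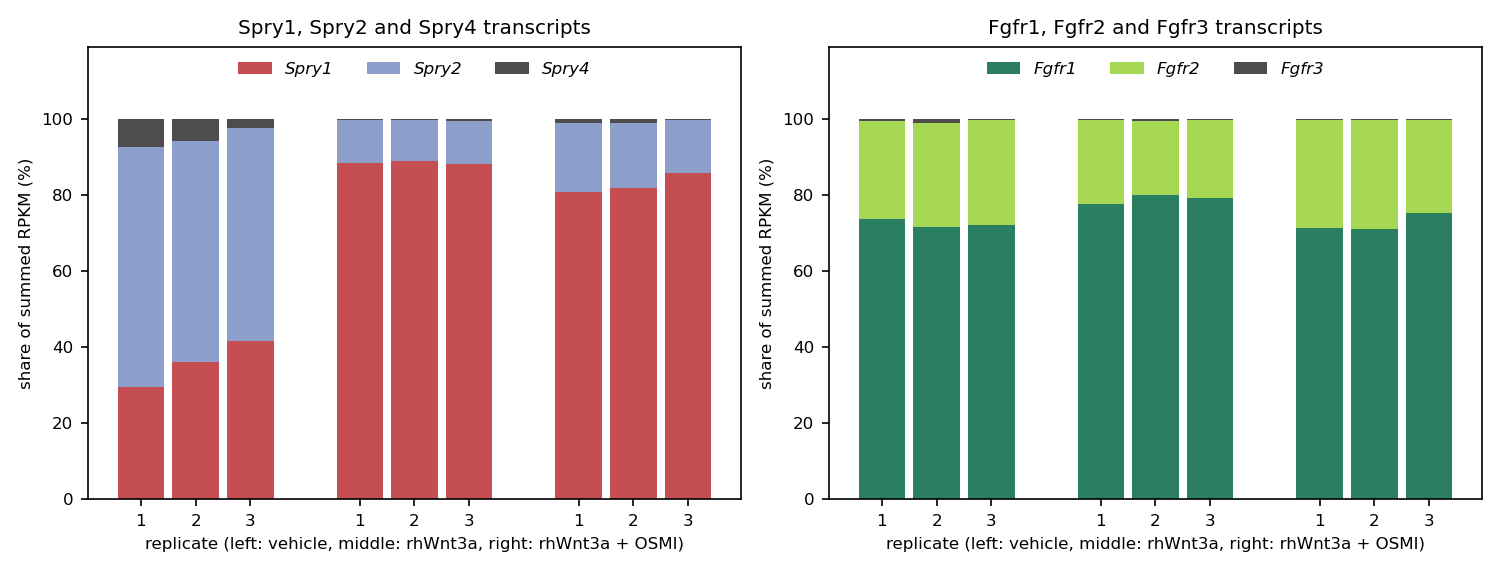
Share (vertical axis, percent of summed RPKM) of Spry1, Spry2 and Spry4 in the sum of these 3 genes, which leaves out Spry3, and of Fgfr1, Fgfr2 and Fgfr3 in theirs, with 1 stacked bar for each library in the order vehicle, rhWnt3a, rhWnt3a with OSMI (horizontal axis, replicate number). The Spry1 share is 29.6% to 41.5% in the vehicle libraries and 80.9% to 89.1% in the treated ones, while Fgfr1 holds 71.1% to 80.1% of the receptor sum throughout.

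The second comparison asked what OSMI changed in the presence of rhWnt3a. None of the 10 genes was called, where 4.74% of all genes tested were, 1.69% higher and 3.05% lower. At an unadjusted p under 0.05 there were 5 genes (Fgf2, Fgf7, Fgf10, Fgfr2 and Dusp6), compared with 3160 of all 14004 genes tested. A DESeq2 Wald test called 3 of the 10 (Fgf7, Fgfr2 and Dusp6) and 1232 of 27559 genes. It was run without the count filter of the main fit, so its total includes genes with too few reads for that fit. The groups did not overlap for 5 of the 10 genes, compared with 33.7% of all genes tested. In 4 of these 5 the libraries with OSMI were higher, by 0.99 for Fgf7, 1.13 for Fgf10, 0.54 for Fgfr2 and 0.69 for Dusp6 on the log2 scale, with edgeR adjusted p-values of 0.0595, 0.0833, 0.0591 and 0.112. In Spry1 they were lower, with a log2 fold change of -0.53 (edgeR adjusted p = 0.339). The comparison shares the rhWnt3a libraries with the first, in which the values of these 5 genes were -1.34, -2.65, -0.99, -1.15 and 3.60 in the same order.

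Which libraries entered the fit changed the calls in this comparison. For Fgf7 the log2 fold change was 1.24 without OSMI replicate 3, with an edgeR adjusted p of 0.00727, and it was 0.99 without vehicle replicate 3, with an adjusted p of 0.0428, which called the gene. Without vehicle replicate 3, a library of neither group compared, Fgfr2 (0.54, adjusted p = 0.0395) and Dusp6 (0.69, adjusted p = 0.0443) were called as well in edgeR. With all 3 of the libraries left out, Fgf7 (1.27), Fgf10 (1.43), Dusp6 (0.82), Fgf2 (-0.97) and Spry1 (-0.66) were called on the log2 scale. The spread was again lowered by the choice, and 1789 of 14111 genes were called in that fit. Its OSMI and rhWnt3a libraries lay on opposite sides of the main within-group axis, so OSMI and that axis cannot be told apart there. For Fgfr1 the difference was 0.05 with a 95% interval of -0.37 to 0.46, and its sign turned to -0.17 without OSMI replicate 3. The intervals for Spry2, -0.42 to 0.62, and for Fgfr3, -2.11 to 0.81, left changes of either sign within reach.

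The third comparison set rhWnt3a with OSMI against vehicle. In it 4 of the 10 genes were called, where 14.2% of all genes tested were, and the groups did not overlap for 6 of the 10, compared with 38.8% of all genes. Spry1 was 8.37-fold higher (log2 fold change 3.07, SE 0.348, edgeR adjusted p = 0.000435) and Fgf2 was 3.07-fold higher (1.62, SE 0.287, adjusted p = 0.0046), with 4.84% of all genes called higher. Fgf10 was 2.85-fold lower (-1.51, SE 0.291, edgeR adjusted p = 0.00707) and Fgfr3 was 4.92-fold lower (-2.30, SE 0.597, adjusted p = 0.0289), with 9.34% of all genes called lower. Fgfr3 was at 0.242, 0.287 and 0.699 CPM in the libraries with OSMI, all below the vehicle libraries. Its call was lost without vehicle replicate 1 (-2.43, adjusted p = 0.0585), vehicle replicate 2 (-1.61, 0.122), OSMI replicate 1 (-2.001, 0.106) or OSMI replicate 2 (-2.06, 0.104). The calls of Spry1, Fgf2 and Fgf10 against vehicle were kept under every alternative in which the gene was tested, both in this comparison and in the first.

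Fgf7, Fgfr2 and Dusp6, which fell with rhWnt3a alone, were not called against vehicle when OSMI was present. Their log2 differences were -0.35 for Fgf7 (95% interval -0.92 to 0.22, edgeR adjusted p = 0.39), -0.45 for Fgfr2 (-0.76 to -0.13, 0.0587) and -0.47 for Dusp6 (-0.96 to 0.03, 0.186). With the main axis of difference within groups as a covariate, Fgf7 (-0.56, edgeR adjusted p = 0.00968) and Dusp6 (-0.59, 0.00689) were called lower. That axis was drawn from these same libraries, so fitting it lowers the spread, and 4670 of 14004 genes were then called. With the 3 libraries that stood apart left out, Fgf7 was at 0.09 and not called. For Fgfr2 the groups did not overlap, and the gene was called without vehicle replicate 3 (-0.54, edgeR adjusted p = 0.0288) or without OSMI replicate 3 (-0.53, 0.0382), and at -0.68 without all 3 libraries. Fgfr1 differed by -0.43 with an edgeR adjusted p of 0.147. It was called at -0.65 without OSMI replicate 3 (edgeR adjusted p = 0.0197) and at -0.81 without all 3 libraries. The fit without all 3 libraries called 3351 of 14111 genes. In it the OSMI and vehicle libraries lay on opposite sides of that axis, so OSMI and the axis cannot be told apart. Spry2 (0.06) and Spry4 (-0.75) were not called, with edgeR adjusted p-values of 0.893 and 0.319.

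**Figure D3:**
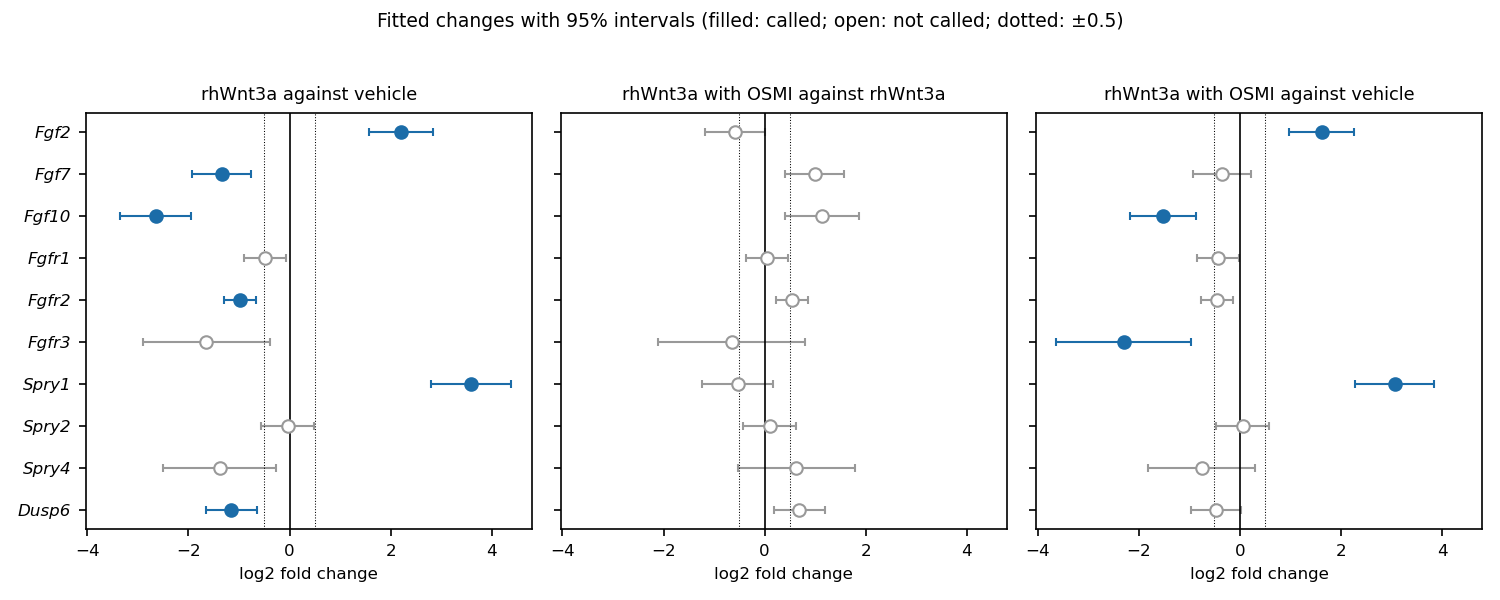
Fitted log2 fold change (horizontal axis) of the 10 genes (rows) in the 3 comparisons, with 95% intervals from the edgeR fit, filled points for called genes and dotted lines at ±0.5. Spry1 lies at 3.60 and 3.07 in the comparisons against vehicle, and every point is open where OSMI with rhWnt3a is set against rhWnt3a.

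The rest of the pathway was read from 5 lists of 70 other genes, of which 52 were tested. In the first comparison 9 of the 52 (17.3%) were called, 2 higher and 7 lower, where 8.78% of all genes tested were. In the second 5 of the 52 (9.62%) were called, 4 higher and 1 lower, where 4.74% of all genes were, and in the third 11 of the 52 (21.2%), 4 higher and 7 lower, where 14.2% of all genes were. Most of the other Fgf genes were close to absent. Only 5 of the 19 (Fgf11, Fgf13, Fgf14, Fgf17 and Fgf21) had enough reads to test, while Fgf9 had 0 counts in every library and Fgf1, Fgf5, Fgf18 and Fgf23 never exceeded 4 counts. The receptor Fgfr4 stayed at 7 counts or fewer and the klotho coreceptor Kl at 2 or fewer. Fgf21, a metabolic hormone of the family, was at 10.8 to 12.6 CPM with vehicle, 4.61 to 9.95 with rhWnt3a and 2.66 to 3.03 with both agents. It fell in the third comparison (log2 fold change -2.02, SE 0.272, edgeR adjusted p = 0.00108) and kept this call when any 1 library was left out. Its fall in the second comparison (-1.30, adjusted p = 0.0274) was lost in 6 of the 9 fits without 1 library.

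Among the other feedback inhibitors, Dusp4, a nuclear phosphatase of ERK, was at 3.85 to 5.09 CPM in the vehicle libraries, 16.5 to 25.2 with rhWnt3a and 22.6 to 25.5 with both agents. It rose in the first comparison (log2 fold change 2.25, SE 0.192, edgeR adjusted p = 0.000103) and in the third (2.42, SE 0.193, adjusted p = 5.3e-05), without loss in any alternative. Dusp5, another nuclear ERK phosphatase, fell with rhWnt3a (-1.23, SE 0.2, edgeR adjusted p = 0.00369). Dusp7 rose by 0.71 on the log2 scale (edgeR adjusted p = 0.0305), a call lost in 6 of the 9 fits without 1 library. Of the 8 feedback inhibitors tested outside the 10 genes, 3 (37.5%) were called in the first comparison, where 8.78% of all genes tested were. In the third 1 (12.5%) was called, where 14.2% of all genes were. In the second 0 were called and 2 were at an unadjusted p under 0.05, as were 3160 of all 14004 genes tested. Dusp4 and Dusp7 thus rose with rhWnt3a, while Dusp5 and Dusp6 fell.

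The 16 genes that commonly respond to ERK had a median log2 fold change of -0.329 with rhWnt3a, compared with 0.0371 over all genes tested, and none of the 16 lay above 0. The 3 genes of this list that fell, where 5.86% of all genes tested did, were Epha4, an ephrin receptor (-1.93, SE 0.155, edgeR adjusted p = 7.3e-05), Fos (-1.59, SE 0.269, adjusted p = 0.00469) and Egr1 (-0.82, SE 0.18, adjusted p = 0.0189). Epha4 was at 38.7 to 46.6 CPM in the vehicle libraries and at 10.01 to 12.7 with rhWnt3a, without overlap. The Egr1 call was lost without vehicle replicate 2 (-0.85, edgeR adjusted p = 0.0505) or rhWnt3a replicate 1 (-0.81, 0.069). With OSMI added to rhWnt3a, 4 of the 16 rose, where 1.69% of all genes tested did, namely Fosl1 (1.25, edgeR adjusted p = 0.0345), Egr1 (0.84, 0.0294), Etv5 (0.80, 0.0304) and Epha2 (0.60, 0.0374), and the list's median was 0.453, compared with -0.0149 over all genes tested. Each of these 4 calls was lost in 4 to 8 of the 9 fits that left out 1 library. Against vehicle, the libraries with both agents had Epha4 (-1.38, edgeR adjusted p = 0.000358), Etv1 (-1.21, 0.0114) and Fos (-1.20, 0.0139) lower and Etv5 (0.61, 0.0396) higher, and only Epha4 of these kept its call in all of the fits without 1 library. Etv1 lost its call without vehicle replicate 1 (-1.05, edgeR adjusted p = 0.0512), Fos without OSMI replicate 1 (-1.19, 0.0516) or 2 (-1.07, 0.0625), and Etv5 in 7 of the 9 fits.

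Of the 20 genes of the signal relay between receptor and ERK, 1 (5%) was called with rhWnt3a, 0 with OSMI added and 3 (15%) in the third comparison, where 8.78%, 4.74% and 14.2% of all genes were. With rhWnt3a it was Gab1, a docking adaptor (-0.63, edgeR adjusted p = 0.0316). With OSMI added 7 of the 20 were at an unadjusted p under 0.05, as were 3160 of all 14004 genes tested. In the third comparison Map2k1, which encodes the ERK kinase MEK, fell by 0.71 on the log2 scale (edgeR adjusted p = 0.0045) and kept its call when any 1 library was left out. Mapk3, which encodes ERK itself, fell by 0.85 (edgeR adjusted p = 0.0155), and Sos2, a RAS activator, rose by 0.63 (adjusted p = 0.0371). The Mapk3 call was lost without vehicle replicate 2 (-0.84, edgeR adjusted p = 0.0545), and the Gab1 and Sos2 calls were each lost in 6 of the 9 fits without 1 library. Fgfrl1, a receptor without a kinase domain, fell in the first comparison (-0.88, edgeR adjusted p = 0.00925) and the third (-0.73, 0.0173), and Fgf13 fell in the first (-1.31, 0.0436) and Fgf17 rose in the third (1.38, 0.0385). Of these, Fgf13 lost its call without any of the 9 libraries in turn, and the others lost theirs in 2 to 6 of the 9 fits.

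**Figure D4:**
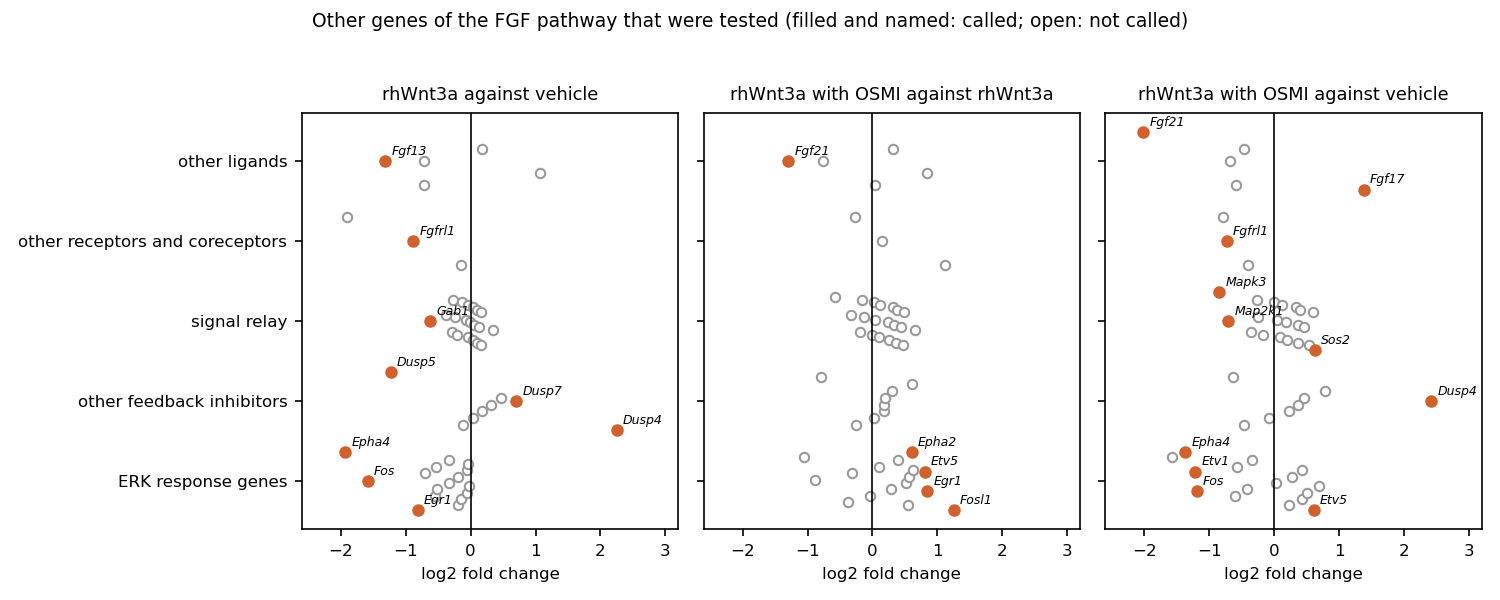
Log2 fold change (horizontal axis) of the 52 other pathway genes tested, in rows by list, in the 3 comparisons, with filled, named points for called genes and open points for the rest. All points of the ERK response genes lie below 0 with rhWnt3a, and Dusp4 lies at 2.25 and 2.42 in the comparisons against vehicle.

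The pattern of each called gene over the 9 libraries was compared with that of all tested genes by the root mean square difference of centred log2 CPM, where a smaller value means a closer pattern. Fgf7 and Dusp6 were each other's nearest gene at 0.178, against a median of 0.715 over all genes for Fgf7. The nearest to Spry1 were Bmper (0.263), Ahr (0.278) and Arl4c (0.375), and those to Fgf2 were Antxr1 (0.209), Tmem2 (0.21) and Pdzrn3 (0.221). Fgfr2 was nearest to Aplp2 (0.087), Pam (0.0955) and Anxa11 (0.114), Fgf10 to Gm567 (0.279), Rassf7 (0.308) and Cavin2 (0.312), and Fgfr3 to Gas1 (0.408), Sh3bp2 (0.449) and Macc1 (0.45). These distances mix the differences between groups with those between libraries of a group, and are descriptions.

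On the mm10 build of the deposited table, Fgf7 lies at chr2:126034658-126091185, Fgf10 at chr13:118669791-118792115, Fgfr2 at chr7:130162451-133123350, Dusp6 at chr10:99263231-99267489, and Fgf2 and Spry1 both on chromosome 3, at chr3:37348346-37410108 and chr3:37639947-37644598. Some counts could hold reads of a neighbour. In the GENCODE M21 annotation the last part of Fgf2 is antisense to Nudt6 over 9.44% of the exon bases of Fgf2, and the strand setting of the counting was not given in the sources used here. Nudt6 had 16 to 41 counts a library and a log2 fold change of 0.04 with rhWnt3a (edgeR adjusted p = 0.979). Fgfr2 overlaps 69 other genes, but shares exon bases with Ctbp2 alone, over 3.04% of its own. Spry1 shares 24.4% of its exon bases with Gm42922, which had 0 to 6 counts. Dusp6 and Spry2 overlap no annotated gene.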

How the data were processed

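Poly(A)-selected RNA from ST2 cells was sequenced, with 3 libraries in each of 3 groups. The processing notes name CASAVA, fastp, HISAT2 2.0.5, featureCounts 1.5.0-p3 and the mm10 build. The annotation release and strand setting are not given in the sources used here. The authors deposited 1 table with raw counts per gene, which were used as deposited. The same table also holds FPKM values and the authors' own comparisons (group means, fold changes and p-values), which were not used.

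Counts were fitted with edgeR 4.0.16 (R 4.3.3) as 1 model of the 3 groups, without covariates, with TMM scaling, on genes passed by filterByExpr (default settings, a minimum count of 10 and a total of 15). Two-sided quasi-likelihood tests were adjusted by Benjamini-Hochberg over all 14004 genes tested in each comparison, with calls made as stated in the results. SE is the log2 fold change over the root of F. RPKM were computed from TMM-scaled CPM and the exon length in the table. The pipeline was checked on simulated counts. Overlaps were read from GENCODE M21, in which 54409 of the 54532 genes were found, 53499 with the same start and end. Transcripts were compared by BLAST 2.17.0 at 97% identity over 100 bases, and Fgf7, Fgf10, Spry2, Spry4 and Dusp6 matched no other gene.

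Named were the 10 genes, every other pathway gene called in at least 1 comparison, the 3 tested genes nearest in pattern to each called gene, and genes overlapping the 10. Levels of untested pathway genes, Spry3 and the pool that includes it, the promoters printed and the genes between Fgf2 and Spry1 were chosen after values were seen. The 10 genes and all lists were chosen with earlier results of these data known. The libraries are taken as replicates from their labels, which do not say whether they came from separate cultures, so p-values measure the spread between these libraries, which may be technical. Alternatives were other scalings and filters, DESeq2 1.42.0, each comparison fitted on its own 6 libraries, a replicate block, a covariate for the main axis of difference within groups, other thresholds, and libraries left out singly or 3 together.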

Additional observations from a re-analysis of the deposited data

How the results depend on the processing

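Of 591 log2 fold changes of the 10 genes under the alternatives, 535 kept their direction and side of the threshold, 38 came past it, 8 no longer passed and 10 changed sign. For rhWnt3a against vehicle the count of 6 called stayed within 1.5 times under every alternative. Fgf7 and Dusp6 lost their calls without rhWnt3a replicate 1, and Fgfr1, Fgfr3 and Spry4 gained calls with the 3 libraries left out. With the 3 left out, 2557 of 14111 genes were called in this comparison, compared with 1230 of 14004 in the main fit. For OSMI added to rhWnt3a the count of 0 became 1 with total-count scaling and with at least 10 counts in every library, 2 without a filter, 3 with DESeq2, 4 with the within-group axis as a covariate, 5 with the 3 libraries left out together, 5 at unadjusted p, and 0 to 3 with 1 library left out. Over all genes, 682 of 14004, 600 of 12005 and 1481 of 27560 were called there under the first 3 of these settings. DESeq2, run without the count filter of the main fit, called 1232 of 27559. The axis covariate called 4033 of 14004 and the 3 left out 1789 of 14111. At unadjusted p 2271 of 14004 were called, compared with 664 of 14004 in the main fit. For rhWnt3a with OSMI against vehicle, 4 became 2 with at least 10 counts in every library, which removed Fgf10 and Fgfr3 from the test. In it Fgf7 and Dusp6 gained calls with the axis covariate, and Fgfr1 and Fgfr2 with the 3 left out. Among the other pathway genes, the first comparison had 9 called, 5 at a log2 fold change beyond 1 and 4 to 9 with 1 library left out. Over all genes 796 of 14004 were called beyond 1 there. The second had 5, with 9 by DESeq2, 2 on its own 6 libraries, 18 with the axis covariate, 10 with the 3 libraries left out, 14 at unadjusted p, 2 beyond 1, and 0 to 6 with 1 library left out. Over all genes 345 of 13522 were called on its own 6 libraries and 380 of 14004 beyond 1. The third had 11, with 25, 17, 17 and 6 under the axis covariate, the 3 left out, unadjusted p and beyond 1. Over all genes it had 4670 of 14004, 3351 of 14111, 3186 of 14004 and 1118 of 14004 under the same settings. It had 6 to 12 of the other pathway genes with 1 library left out. With 1 library left out, 716 to 1506, 203 to 764 and 1218 to 2328 of all genes were called in the 3 comparisons. The axis and the 3 libraries were both drawn from these same data, so both settings lower the spread. The sign turned for Fgf7 in the third comparison (0.0945, 3 libraries left out), Fgfr1 in the second (-0.186, 3 left out, and -0.168 to 0.193 with 1 library left out), and Spry2 in the first (0.0015 with the replicate block, 0.253 with 3 left out, -0.219 to 0.314 with 1 left out), the second (-0.0016, axis covariate) and the third (-0.0121, axis covariate, and -0.101 to 0.41 with 1 left out). None of the values before or after was called. The cause was not tested. Adding Spry3 to the Sprouty sum, chosen after seeing the data, moved the mean Spry1 share from 35.7% to 29.9%, from 88.6% to 84.7% and from 82.9% to 80.1% in the 3 groups. The 60 group mean CPM values under both other scalings moved by less than 1 SD.

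Correlations of same-numbered deviations ran from -0.49 to 0.439. They were positive where the 2 libraries lay on the same side of the main within-group axis and negative otherwise. They therefore cannot show whether same-numbered libraries were paired. With the replicate block, Fgfr3 in the third comparison gave -2.15 (edgeR adjusted p = 0.0696) and lost its call. Among all genes it called 809, 233 and 1297 instead of 1230, 664 and 1986, and 1 other pathway gene in the second comparison. Fgfr3, Spry4 and Fgf10 rest on at most 87 counts a library, so their intervals are wide.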

Other observations

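Fgf2 and Spry1, the 2 genes of the 10 that rose with rhWnt3a, lie on the same strand of chromosome 3, with 229838 bases between them. Of the genes in between, Nudt6 and Spata5 were tested, and neither was called. Nudt6 differed by 0.04 on the log2 scale between rhWnt3a and vehicle (edgeR adjusted p = 0.979) and Spata5, at 473 to 956 counts a library, by 0.39 (adjusted p = 0.318). The other genes there, among them 2 short processed pseudogenes, had 6 counts or fewer in every library. This interval was looked at because its flanking genes rose.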
